A study of Mus musculus with 6 samples.

Results

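The mitochondrial carrier family, the proteins whose gene symbols start with Slc25a, was followed in fetal liver erythroid progenitors of 2 genotypes. Members were all array probes annotated with such a symbol, with the erythroid iron importer Slc25a37 and the glycine carrier Slc25a38 set aside. This gave 62 of the 46632 probes on the array, for 42 of the 17711 genes named by a probe. Of these carriers 25 had 1 probe and 17 had several. The rule used symbols and no measured value, and it was set with earlier results of these data known.

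The study compared SclRER/RER cells, which carry a form of the transcription factor SCL (encoded by Tal1) altered in its DNA binding, with wild-type (WT) cells, on 3 single-colour Illumina arrays per genotype. Both groups were labelled C57Bl/6 and came from E12.5 embryos. In both, fetal liver cells were grown for 3 days and the progenitors lacking Ter119, which appears on the surface as red cells mature, were purified. The labels leave unsaid whether the arrays of a genotype represent different embryos, so the error behind each p-value is the spread between arrays. In each genotype the arrays were not all repeats of 1 RNA sample, since sex-linked genes differed among them, as given below.

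Slc25 carriers sit in the inner mitochondrial membrane, with a few in the outer membrane or in peroxisomes, and each moves a small set of molecules across it. They export ATP and import ADP and phosphate, exchange the acids of the citric acid cycle, and bring in amino acids, cofactors and nucleotides. Developing red cells depend on them because haem synthesis begins and ends inside the mitochondrion. SCL activates and represses genes of the erythroid lineage, partly by binding DNA at E-box motifs beside GATA sites and partly through its partner proteins without binding DNA itself.

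All levels below are log2 intensities after background correction and quantile normalization between arrays, and a difference of 1 on this scale is a 2-fold change. A probe counted as detected on an array where its detection p was below 0.01, and a probe was kept for testing when detected on 3 or more of the 6. Between 11084 and 12678 probes were detected per array, the most on SclRER/RER array 1, whose mean signal of 546 intensity units compared with 385 to 457 on the other arrays. The number of arrays limits the precision of every difference. Of the erythroid markers, 9 of 11 were kept, among them Gata1 and Klf1, transcription factors of red cell development, and Tfrc, the transferrin receptor. Of 8 hepatocyte genes, 6 were detected on no array, Alb and Afp among them, while Apoa1, an apolipoprotein of the liver, was detected on all 6, at 9.68, 9.73 and 8.86 in SclRER/RER and 9.90, 9.95 and 9.89 in WT. Every SclRER/RER value of Apoa1 lay below every WT value, and the difference did not pass (-0.49, SE 0.22, adjusted p = 0.263). The part of such cells in the carriers' values was not tested.

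Detection differed between carriers of the same substrate. Of the 62 probes, 24 were kept (38.7%, against 24.8% of all probes), for 21 of the 42 carriers. A further 5 probes were detected on 1 or 2 arrays and 33 on none. Among adenine nucleotide translocators, which trade matrix ATP for cytosolic ADP, Slc25a5 was detected on all 6 arrays, Slc25a4, the form known from heart and muscle, on SclRER/RER array 1 alone, and neither probe of Slc25a31, the testis form, on any. The aspartate and glutamate exchanger Slc25a12 was detected on all arrays, whereas both probes of its close relative Slc25a13 were detected on none. The glutamate carrier Slc25a22 was detected on all arrays and its relative Slc25a18 on none. Slc25a39, which brings glutathione into mitochondria, was detected on all arrays and the 3 probes of Slc25a40, its relative, on none. An undetected probe does not show that a gene is silent. Of the 2 probes of the phosphate carrier Slc25a3, 1 lay between 12.61 and 13.19 and the other, annotated to another transcript record, between 4.66 and 4.72. Carriers with no kept probe also included the ATP-Mg and phosphate exchangers Slc25a23, Slc25a24, Slc25a25 and Slc25a41, the ornithine carrier Slc25a2 and the basic amino acid carrier Slc25a29, the oxodicarboxylate carrier Slc25a21, Slc25a16 and Slc25a42, which are linked to coenzyme A, the NAD carrier Slc25a51, the uncoupling-protein relative Slc25a27, the outer membrane protein Slc25a46, and Slc25a34, Slc25a35, Slc25a43 and Slc25a48. Of these, Slc25a24 and Slc25a43 were detected on SclRER/RER array 1 alone, and Slc25a25 on that array and on WT array 1. Slc25a36 had a second probe detected only on SclRER/RER array 1, the array with the lowest detection floor, 5.96 against 6.28 to 6.41 on the others.

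**Figure D1:**
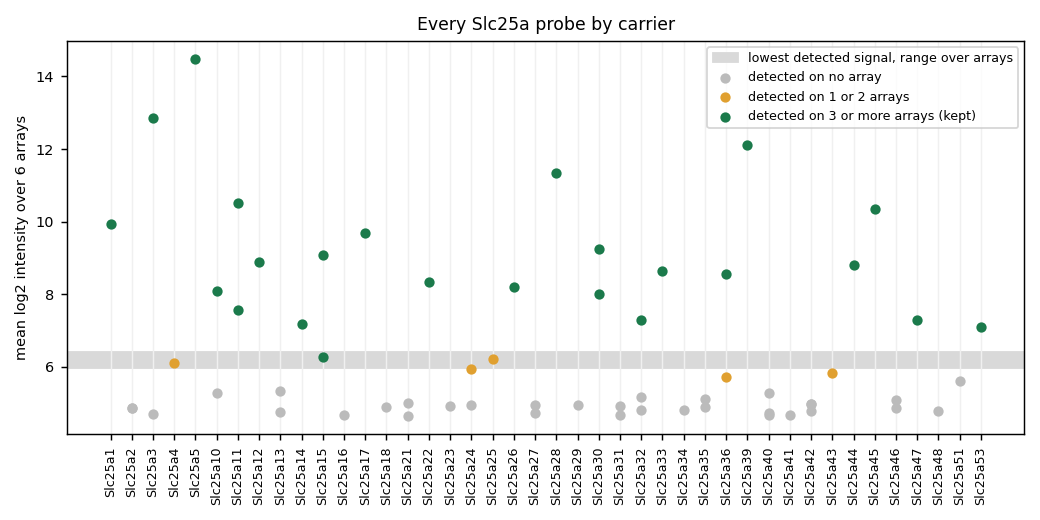
Each of the 62 Slc25a probes by carrier (horizontal axis) and its mean log2 intensity over 6 arrays (vertical axis), coloured by the number of arrays on which it was detected. The grey band spans the lowest detected signal on the 6 arrays, 5.96 to 6.41, and the 33 undetected probes lie below it. Heights of different probes reflect probe chemistry as well as mRNA and are not compared.

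Promoter sequence is shown for 3 carriers, Slc25a5 and Slc25a4 because this pair of translocators differed in detection, and Slc25a30 because its 2 probes had the largest differences between genotypes. RefSeq windows of GRCm38.p6, from 250 bases before to 50 bases after a gene's start, were found for 33 of the 42 carriers. Capitals mark the E-box letters CANNTG and the GATA letters GATAA, searched on both strands, with no overlap between them in these windows. The Slc25a5 window is chrX:36795347-36795646 on the plus strand, the Slc25a4 window chr8:46211013-46211312 on the minus strand and the Slc25a30 window chr14:75786988-75787287 on the minus strand.
Slc25a5: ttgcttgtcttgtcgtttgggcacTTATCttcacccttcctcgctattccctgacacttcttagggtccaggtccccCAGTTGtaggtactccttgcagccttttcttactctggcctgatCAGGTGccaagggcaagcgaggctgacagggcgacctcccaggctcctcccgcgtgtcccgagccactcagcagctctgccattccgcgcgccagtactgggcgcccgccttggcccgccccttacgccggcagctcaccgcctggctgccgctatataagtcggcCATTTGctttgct
Slc25a4: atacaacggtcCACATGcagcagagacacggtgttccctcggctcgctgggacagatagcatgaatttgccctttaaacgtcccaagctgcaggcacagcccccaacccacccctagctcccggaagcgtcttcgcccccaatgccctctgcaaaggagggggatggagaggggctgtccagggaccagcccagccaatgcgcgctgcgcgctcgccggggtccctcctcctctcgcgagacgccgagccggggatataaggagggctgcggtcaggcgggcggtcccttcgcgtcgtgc
Slc25a30: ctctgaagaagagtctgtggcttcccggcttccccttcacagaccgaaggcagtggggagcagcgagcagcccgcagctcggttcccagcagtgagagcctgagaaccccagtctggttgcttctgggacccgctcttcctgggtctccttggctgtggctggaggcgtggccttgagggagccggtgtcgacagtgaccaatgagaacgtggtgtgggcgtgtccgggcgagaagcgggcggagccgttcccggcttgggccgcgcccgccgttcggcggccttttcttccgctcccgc
The Slc25a5 window holds 3 E-box matches and 1 GATA match, the Slc25a4 window 1 E-box match and no GATA match, and the Slc25a30 window neither. Such letters are common. CANNTG was present in 72.3% of 32851 promoter windows of the same length and in 31 of the 43 windows of the carriers, and GATAA in 25.4% of all windows and in 9 of 43. A match is a description of the sequence and not a binding site, and its absence says only that the letters are not in that window.

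None of the kept carrier probes passed the genotype test. Of the 24, 0 were higher and 0 lower in SclRER/RER at a limma adjusted p below 0.05, where 763 of all 11578 kept probes, or 6.59%, passed (3.32% higher and 3.27% lower). At an unadjusted p below 0.05 there were 2 of 24, for Slc25a26 and the dimmer Slc25a30 probe, against 19.6% of all kept probes. The median difference of the carriers was 0.04, with 15 probes above and 9 below 0, and that of all kept probes was 0.00. Values of the genotypes did not overlap for 1 of the 24 probes, against 24.5% of all kept probes. The differences ranged from -0.26 to 0.38, so the largest was 1.30-fold. The 95% confidence interval lay inside a 2-fold change in either direction for all 23 probes detected in both genotypes. It lay inside a 1.5-fold change for 17 of them. Over all kept probes on the array, some of them not detected in 1 genotype, the shares were 91.1% and 67%. The other kept carrier probe, the dimmer of Slc25a15, was detected on no WT array, so its difference is not a measured one. It is still counted in the median and among the probes above 0. Smaller shifts remain possible within those intervals. Because RNA of many purified cells was measured together, fewer cells expressing a carrier and less of its mRNA per cell cannot be told apart. Without SclRER/RER array 3, 1 carrier probe passed, the brighter Slc25a30 probe.

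**Figure D2:**
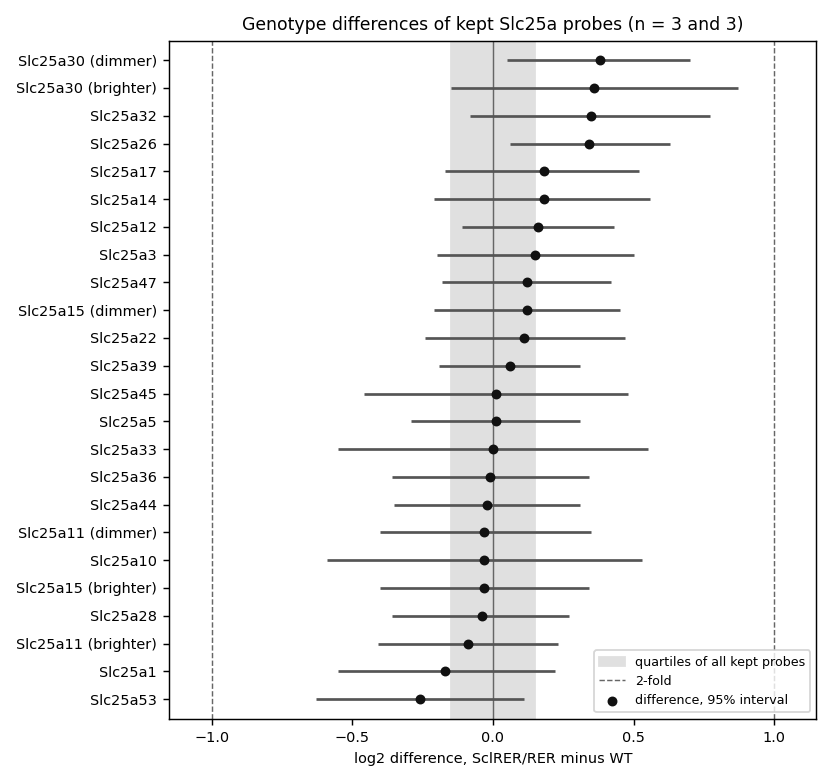
Log2 difference, SclRER/RER minus WT, for each of the 24 kept Slc25a probes (points) with 95% confidence intervals (bars) from the fit over 3 and 3 arrays. The grey band runs from the lower to the upper quartile of all kept probes, -0.15 to 0.15, and all bars lie inside the dashed lines at a 2-fold change. The dimmer Slc25a15 probe was detected on no WT array, so its difference is not a measured one.

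Carriers of energy metabolism lay close together in both genotypes. Slc25a5 lay at 14.69, 14.35 and 14.42 on SclRER/RER arrays 1 to 3 and at 14.60, 14.49 and 14.35 on WT arrays 1 to 3. The highest value was on a SclRER/RER array, the lowest reading, 14.35, occurred once in each group, and the groups overlapped (difference 0.01, SE 0.13, 95% confidence interval -0.29 to 0.31, adjusted p = 0.986). This probe was within 1 log2 unit of the highest value on the arrays, 15.26, which leaves little room to record a higher level. Slc25a3, which imports the phosphate for ATP synthesis, stood at 13.19, 12.85 and 12.77 in SclRER/RER and 12.75, 12.98 and 12.61 in WT. Here too the groups overlapped, although SclRER/RER array 1 was highest of all (difference 0.15, SE 0.15, adjusted p = 0.667).

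Carriers of citric acid cycle intermediates and of amino acids also overlapped between genotypes. Slc25a1, which exports citrate for fatty acid synthesis, had values of 9.51, 9.94 and 10.13 in SclRER/RER and 9.95, 9.98 and 10.16 in WT, with array 1 of SclRER/RER the lowest (difference -0.17, SE 0.17, adjusted p = 0.671). Slc25a11, the oxoglutarate and malate exchanger, had 2 kept probes. On the brighter, SclRER/RER arrays read 10.18, 10.61 and 10.59 and WT arrays 10.49, 10.58 and 10.58, with the low value again on SclRER/RER array 1. Its 2 probes differed between genotypes by -0.09 and -0.03, with adjusted p of 0.808 and 0.959. The dicarboxylate carrier Slc25a10 ranged from 7.57 to 8.66 in SclRER/RER and from 7.97 to 8.20 in WT, the WT range lying inside the other (difference -0.03, SE 0.25).

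Slc25a12, part of the malate-aspartate shuttle that carries reducing equivalents into mitochondria, read 8.89, 8.88 and 9.10 in SclRER/RER and 8.90, 8.74 and 8.75 in WT. Only WT array 1 reached the SclRER/RER values (difference 0.16, SE 0.12, adjusted p = 0.539). Slc25a22 ranged from 8.18 to 8.73 in SclRER/RER and from 8.19 to 8.37 in WT (difference 0.11, SE 0.16). Slc25a15, the ornithine carrier of the urea cycle, had a brighter probe at 8.90, 8.89 and 9.41 in SclRER/RER and 9.24, 9.06 and 9.0 in WT (difference -0.03, SE 0.16, adjusted p = 0.95). Its dimmer probe read 6.03, 6.48 and 6.50 in SclRER/RER and 6.26, 6.18 and 6.20 in WT, where it was detected on no array. With values raised to the detection floor the 2 genotypes differed by -0.02 on it, so no fold is given.

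The largest differences were in a carrier of uncoupling-protein type and in carriers of cofactors, and none passed the test. Slc25a30, a relative of the uncoupling proteins known from kidney, had a brighter probe at 9.72, 9.70 and 8.84 in SclRER/RER and 9.11, 9.0 and 9.07 in WT. SclRER/RER arrays 1 and 2 stood above every WT array and array 3 below them all. The difference was 0.36 (SE 0.22, adjusted p = 0.446) with all arrays and 0.65 (adjusted p = 0.0123) without SclRER/RER array 3. The dimmer probe read 8.34, 8.33 and 7.97 in SclRER/RER and 7.98, 7.74 and 7.78 in WT, the same array 3 being the low one (difference 0.38, SE 0.14, adjusted p = 0.179, and 0.0524 without that array). Slc25a14, another relative of the uncoupling proteins, read 7.41, 7.07 and 7.35 in SclRER/RER and 7.34, 7.20 and 6.77 in WT (difference 0.18, SE 0.17).

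Slc25a26 imports S-adenosylmethionine, the methyl donor used inside mitochondria. It read 8.53, 8.33 and 8.23 on SclRER/RER arrays and 8.10, 8.07 and 7.89 on WT arrays, the 1 probe whose groups did not overlap, with a gap of 0.13 between them. The difference was 0.34 (SE 0.13, 95% confidence interval 0.06 to 0.63, adjusted p = 0.169), and the adjusted p lay between 0.11 and 0.521 over 17 alternative settings. Slc25a32, which carries folate and flavin cofactors, had 1 of its 3 probes kept. That probe read 7.58, 7.29 and 7.54 in SclRER/RER and 7.54, 6.91 and 6.93 in WT, with WT array 1 among the SclRER/RER values (difference 0.35, SE 0.18, adjusted p = 0.362). The peroxisomal carrier Slc25a17 lay at 10.06, 9.63 and 9.69 in SclRER/RER and 9.80, 9.49 and 9.56 in WT, overlapping (difference 0.18, SE 0.15, adjusted p = 0.601).

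The iron and glutathione carriers bear on haem, and neither passed the test. Slc25a28, mitoferrin 2, the mitochondrial iron importer of non-erythroid cells, read 11.42, 11.48 and 11.06 in SclRER/RER and 11.34, 11.30 and 11.45 in WT. SclRER/RER array 3 was the lowest and array 2 the highest of the 6 (difference -0.04, SE 0.14, 95% confidence interval -0.36 to 0.27). Slc25a39, which has also been linked to haem synthesis, had the smallest spread of the kept probes in SclRER/RER. It lay at 12.21, 12.13 and 12.05 in SclRER/RER and 12.13, 12.02 and 12.05 in WT (difference 0.06, SE 0.11, 95% confidence interval -0.19 to 0.31, adjusted p = 0.831).

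The remaining carriers had differences near 0 apart from Slc25a53. The pyrimidine nucleotide carrier Slc25a33 read 8.29, 8.38 and 9.22 in SclRER/RER and 8.70, 8.39 and 8.81 in WT, with SclRER/RER array 3 the highest (difference 0.00, SE 0.24). Its relative Slc25a36 ranged from 8.29 to 8.77 in SclRER/RER and from 8.47 to 8.75 in WT (difference -0.01, SE 0.15). Slc25a45 and Slc25a47, relatives of the carnitine carrier, differed by 0.01 (SE 0.20) and 0.12 (SE 0.13). Slc25a45 read 10.50, 10.73 and 9.87 in SclRER/RER, above and below its WT values of 10.30, 10.33 and 10.45. Slc25a47 read 7.16, 7.37 and 7.51 in SclRER/RER and 7.33, 7.10 and 7.26 in WT. Slc25a44, a carrier of branched-chain amino acids, read 8.52, 8.99 and 8.88 in SclRER/RER and 8.94, 8.75 and 8.76 in WT (difference -0.02, SE 0.15). Slc25a53, whose substrate is not given here, read 6.75, 7.21 and 6.96 in SclRER/RER and 7.03, 7.19 and 7.48 in WT, the lowest difference of the kept carriers (-0.26, SE 0.16, adjusted p = 0.448).

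**Figure D3:**
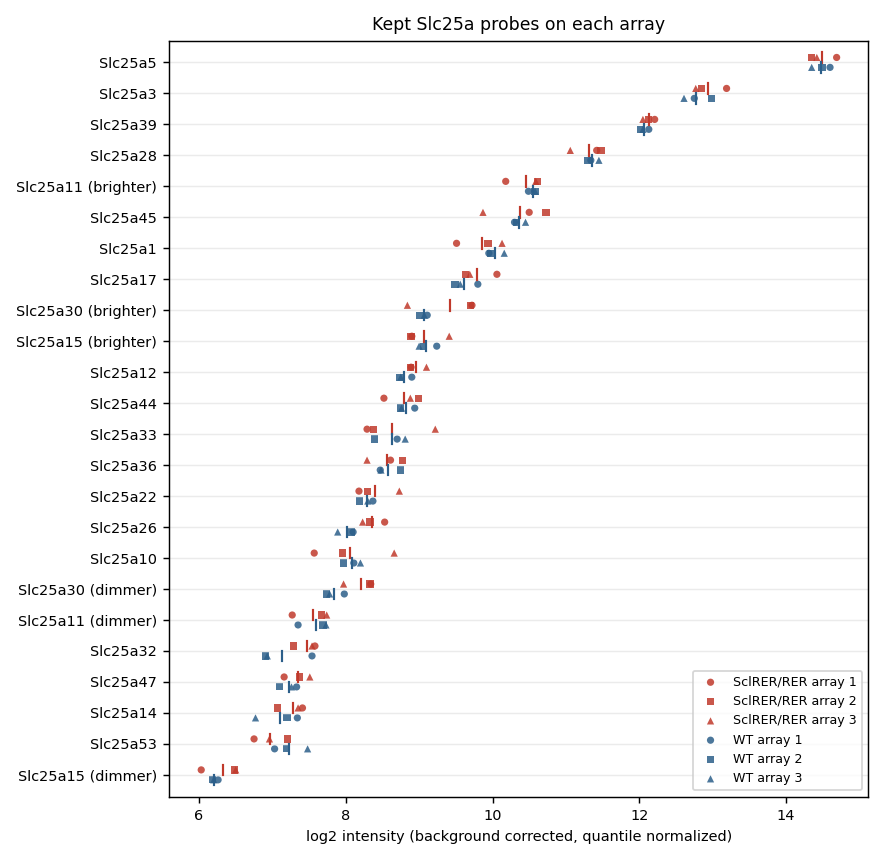
Log2 intensity (horizontal axis) of the 24 kept Slc25a probes on each array, SclRER/RER in red and WT in blue, with a vertical bar at each mean of 3 arrays and a marker shape for each array number. The 2 colours overlap on every line except that of Slc25a26, and SclRER/RER array 3 stands away from the other red points for Slc25a10, Slc25a30, Slc25a33 and Slc25a45.

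The carriers varied more among SclRER/RER arrays than among WT arrays. The SD over 3 arrays was larger in SclRER/RER for 21 of the 23 probes detected in both genotypes and for 22 of all 24 kept. Over all kept probes on the array, some of them not detected in 1 genotype, the share was 64.5%. The median SD of the 23 was 0.23 in SclRER/RER and 0.12 in WT, where all kept probes had 0.17 and 0.13. Slc25a14 and Slc25a32 were the exceptions. The SD in SclRER/RER reached 0.56 for Slc25a10, 0.52 for Slc25a33, 0.50 for the brighter Slc25a30 probe and 0.44 for Slc25a45. SclRER/RER array 3 was the highest of its group for Slc25a10 and Slc25a33 and the lowest for Slc25a30 and Slc25a45. All these probes were read on the same 3 arrays of each genotype, so they are not separate observations of spread. Over all kept probes, SclRER/RER arrays correlated with each other at 0.975 to 0.984 and WT arrays at 0.989 to 0.993. Whether the larger spread belongs to the carriers or to whole arrays was not tested. Arrays also differed in sex-linked genes. Xist, made from the inactive X chromosome of female cells, read 5.89, 11.01 and 10.45 in SclRER/RER and 10.96, 9.0 and 10.59 in WT. The Y-linked gene Eif2s3y read 9.86, 4.75 and 5.48 in SclRER/RER and 6.11, 9.23 and 7.75 in WT. Xist was detected on every array but SclRER/RER array 1, and Eif2s3y only on SclRER/RER array 1 and WT arrays 2 and 3. Both were thus detected on WT arrays 2 and 3. Each of these genes also had a second probe, detected on no array. Of the kept carriers, Slc25a5, Slc25a14 and Slc25a53 are on the X chromosome, and the part of sex in their values was not tested.

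**Figure D4:**
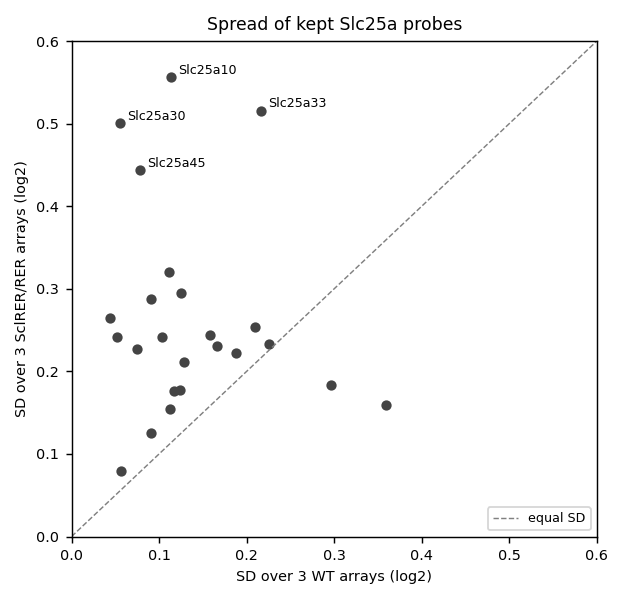
SD of each kept Slc25a probe over 3 SclRER/RER arrays (vertical axis) against its SD over 3 WT arrays (horizontal axis), both in log2 units. Points above the dashed line of equal SD varied more in SclRER/RER, as did 21 of the 23 probes detected in both genotypes, and the 4 highest are named. The point with the smallest WT SD is the dimmer Slc25a15 probe, which was not detected in WT.

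Genes around the carriers gave 1 call among 50. The 10 lists of the carriers' relatives, their import machinery and the enzymes that work with them held 80 genes, of which 50 had a kept probe, taken by the brightest. Of these 1 was higher and 0 lower in SclRER/RER, where 6.61% of 6855 genes passed in either direction. The gene that rose was Ass1, argininosuccinate synthase, the urea cycle enzyme that joins citrulline to aspartate. Ass1 read 9.47, 9.86 and 8.51 in SclRER/RER and 7.79, 7.59 and 7.60 in WT. Every SclRER/RER array lay above every WT array, and the difference was 1.62 (3.08-fold, SE 0.29, adjusted p = 0.014). This call was lost without WT array 2 (adjusted p = 0.0764), without WT array 3 (0.067) and with no detection filter (0.103). Asl, the next enzyme of the cycle, was the other kept gene of that list and differed by 0.14 (SE 0.11), while Slc25a15, the carrier that links the cycle to mitochondria, did not pass, as above.

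Mtch1 and Mtch2, family members of the outer membrane that carry other symbols, did not pass on any kept probe. Mtch1 read 12.90, 12.98 and 12.80 in SclRER/RER and 12.79, 12.57 and 12.73 in WT on its brighter probe, the groups lying 0.01 apart (difference 0.19, SE 0.12, adjusted p = 0.429). The dimmer Mtch1 probe differed by 0.25 (SE 0.13, adjusted p = 0.335). On its brighter probe Mtch2 lay at 11.50, 11.66 and 11.62 in SclRER/RER and 11.60, 11.73 and 11.83 in WT. The groups overlapped there (difference -0.13, SE 0.12), and on the dimmer Mtch2 probe the difference was 0.12 (SE 0.19). Probes for Ucp1 and Ucp3 were detected on no array, and Ucp2 had no probe and so was not measured. The carrier import machinery, of both mitochondrial membranes, had 8 of 13 genes kept, with a median difference of 0.12. Timm22, Timm29 and Agk, of the inner membrane complex that inserts carriers, were detected on no array, nor were Timm13 and Tomm20. Other mitochondrial transporters had 10 of 15 kept, with a median of -0.02. Regulators of mitochondrial gene expression had 8 of 11 kept, with -0.03, and coenzyme A synthesis genes 6 of 7, with 0.07. Malate-aspartate shuttle enzymes had a median of 0.10 over 3 genes, citrate export enzymes -0.03 over 4 and carnitine shuttle enzymes -0.16 over 2.

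Folate and one-carbon enzymes had 5 genes kept, the mitochondrial Shmt2, Mthfd2 and Mthfd1l and the cytosolic Mthfd1 and Shmt1. None of the 5 passed, and their median was -0.06. Mthfd1 and Mthfd2, along with the carrier chaperone Timm10, lay close to the threshold and are named after their values were seen. Mthfd1 read 9.92, 10.17 and 10.86 in SclRER/RER and 11.04, 11.31 and 11.19 in WT, without overlap (difference -0.86, SE 0.22, adjusted p = 0.0566). Mthfd2 read 12.44, 12.33 and 12.23 in SclRER/RER and 12.78, 12.71 and 12.82 in WT, also without overlap (difference -0.43, SE 0.11, adjusted p = 0.0581). Timm10 read 10.90, 10.66 and 11.05 in SclRER/RER and 10.54, 10.28 and 10.24 in WT, with every SclRER/RER array higher (difference 0.52, SE 0.14, adjusted p = 0.0701). Over 17 alternative settings Mthfd1 passed in 9, Mthfd2 in 6 and Timm10 in 4.

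Among the markers of other cells that such a culture could hold, megakaryocyte genes had 4 of 8 kept and all 4 lower in SclRER/RER. The summed intensity of that list was 586 to 827 in SclRER/RER and 1577 to 1964 in WT. Beside the counts given here, 6.61% of 6855 genes passed in either direction. Neutrophil genes had 8 of 9 kept, 0 higher and 3 lower, with sums of 4806 to 10821 and 8065 to 8987. Erythroid markers had 9 kept and 1 lower, with sums of 165733 to 175903 and 174977 to 185371. Mast cell and basophil genes had 3 of 8 kept and 1 higher, with Fcer1a and Mcpt8 detected on no array. Their sums were 964 to 1221 in SclRER/RER and 820 to 868 in WT. Of 10 macrophage, 8 hepatocyte and 7 endothelial genes, 1, 1 and 2 were kept, and none passed. Macrophage sums were 482 to 765 in SclRER/RER and 504 to 563 in WT. Hepatocyte sums were 582 to 946 and 1052 to 1083, and endothelial sums 2924 to 3890 and 4422 to 4931, in the same order. The part of these cells in the carriers' values was not tested.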

How the data were processed

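RNA of 6 samples was amplified, labelled with biotin and hybridised to Illumina arrays, per the labels' protocols. The deposited non-normalized table gives 1 linear signal intensity per probe and array, with a neighbouring detection column. Its values rose with the signal, so this deposited fraction was taken as a score and subtracted from 1 to give a detection p. On WT array 3 it did not follow the signals (Spearman correlation 0.899, against 0.996 or more on the others), and probes of that array were given the average of the scores found at their signal rank on WT arrays 1 and 2. A second table holds the authors' quantile normalized linear intensity values (median 83.7 on every array, per the values). It was used as an alternative. Limma is named without a role in the submitters' processing notes.

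Background correction (normal-exponential convolution, control parameters inferred from the scores, offset 16) and quantile normalization were run with limma 3.58.1 in R 4.3.3. Probes detected (p below 0.01) on at least 3 arrays were kept, and lmFit and eBayes with genotype alone gave two-sided tests with Benjamini-Hochberg adjustment over all 11578 kept probes. All adjusted p-values come from limma. The procedure was also run on simulated data as a check of the code only, and no result above rests on it. Gene names came from the annotation of the platform, updated through a GRCm38.p6 gene table, with 29976 probes having 1 symbol, 10 several and 16646 none. Members and gene lists were chosen with earlier results of these data known. Per-array values were due for the 12 kept members of smallest p, their further probes and the brightest of each substrate group, and list genes were named where they passed or belong to the family. Lists are described by counts, medians and, for markers, summed intensity above background, with no test.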

Additional observations from a re-analysis of the deposited data

How the results depend on the processing

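No kept carrier probe passed the threshold under any of the 11 alternatives that used all arrays. They were no background correction, offset 50, median scaling, cyclic loess, the authors' normalized values and no detection filter. The rest were detection on all 6 arrays, detection scores as deposited, the replicate block, a trended and robust variance model and array weights. Leaving out each array in turn gave 0 to 1 carrier calls, the 1 being the brighter Slc25a30 probe without SclRER/RER array 3. The carriers' median ranged from 0.01 to 0.23. Its highest value came with median scaling, which moved the median of all kept probes to 0.19. Among the 24 uncalled differences, 12 turned sign under at least 1 alternative. The count of genes called in the lists around the carriers, 1 with the main settings, was 4 with no background correction, with offset 50, with the authors' normalized values and with the trended and robust model, 3 with deposited scores and with array weights, 2 with detection on all arrays and 0 with no filter, and 0 to 2 on leaving out 1 array. The added genes were Mthfd1, Mthfd2 and Timm10, and Sfxn4 under the replicate block and without SclRER/RER array 1. The cause was not tested. Replicate numbers were treated as names: deviations of same-numbered arrays correlated at 0.161, -0.027 and 0.074, and SclRER/RER array 2 correlated best with WT array 3. With the replicate block 0 carriers and 3 list genes passed, and 6.39% of all kept probes in place of 6.59%. The file headers name no slide, so slide as a block was not run. Small numbers of arrays limit what could be detected, and probes near the detection floor have no measured difference.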
